A study of Mus musculus with 39 samples.

Results

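The Trem2 signalling chain of microglia was followed through 9 genes, chosen by gene symbol for their roles in it and with earlier results of these data known. They are the receptor Trem2, the adaptors Tyrobp and Hcst, the kinase Syk, the effectors Plcg2, Vav1 and Lat2, the phosphatase Inpp5d and the transcription factor Spi1. All 9 were found in both count tables, which list 50559 genes each. Bulk RNA had been sequenced from the hippocampus and the basolateral amygdala (BLA) of female mice aged 9 months, in a study of how amyloid and tau pathology together affect the circuits of memory and emotion. APP/Tau mice are heterozygous for 2 transgenes: an APP transgene bearing the Swedish and Indiana changes (line J9) and a P301S tau transgene (line PS19). Controls carry neither. Mice of both genotypes carry a CaMKIIα-Cre transgene, active in forebrain glutamatergic neurons, and a RiboTag allele. The sequenced RNA is the input lysate taken before any ribosome pull-down, and RNA of all cells in the tissue is therefore present. Trained mice had received cued fear conditioning, a tone ending in a foot shock, and were killed 1 h after the shock, while naive mice had not been trained. The hippocampal groups were APP/Tau trained (n = 4), APP/Tau naive (n = 5), control trained (n = 6) and control naive (n = 5). The BLA groups were APP/Tau trained (n = 4), APP/Tau naive (n = 5), control trained (n = 5) and control naive (n = 5).

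Trem2 is a surface receptor of myeloid cells that binds lipids, lipoproteins and amyloid and has no signalling tail of its own. It signals through Tyrobp, whose phosphorylated tyrosine motif (the ITAM) docks and activates Syk, and through Hcst, which recruits phosphoinositide 3-kinase. Plcg2, Vav1 and Lat2 act below these, and Inpp5d removes a phosphate from the lipid that the 3-kinase makes. In the brain most of these genes are used mainly by microglia. In mouse models of amyloid deposition Trem2 and Tyrobp are known to be needed for microglia to take up their plaque-associated state.

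Libraries held 92.1 to 128 M counts in the hippocampus and 50.3 to 74.3 M counts in the BLA, so a gene of a given level rested on more counts in the hippocampus. A level is a gene's count relative to its library's total, scaled with TMM factors (CPM), and changes are given as log2 fold changes ± standard error. Prnp, whose promoter is used in the PS19 transgene, read 1588 to 2231 CPM in the APP/Tau libraries of the hippocampus and 707 to 964 CPM in the control libraries. In the BLA it read 1070 to 1683 CPM in APP/Tau and 743 to 1054 CPM in control libraries, so no library went against its genotype label. Microglial markers were present in every library: the 9 homeostatic markers listed (P2ry12, Tmem119, Cx3cr1 and others) summed to 187 CPM or more in each hippocampal and to 162 CPM or more in each BLA library. 3 hippocampal control libraries (trained replicates 1 and 3, naive replicate 1) held 3.19 to 62.4 times the median level of 18S ribosomal RNA rows. The hippocampal fold changes of the 9 genes were fitted again without them, and calls that move are given both ways. Ratios, correlations, ranks, overlaps of groups, other gene lists and the fit over both tissues were not recomputed without them.

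In the hippocampus all 9 genes were higher in APP/Tau mice than in controls when naive and trained mice were averaged. Of all 25791 genes tested in that comparison 11.1% passed the threshold of adjusted p < 0.05 and 7.27% passed it as higher. The adaptor Tyrobp rose by 2.14 ± 0.26 and the receptor Trem2 by 1.85 ± 0.27, while Syk and Plcg2 rose by 0.75 ± 0.18 and 0.51 ± 0.15. The median over the 9 genes was 1.27, against -0.0013 over all genes tested. As the 9 genes were chosen with earlier results of these data known, these values describe them and do not test them as a set. In bulk RNA, more microglia and more RNA per microglia cannot be told apart. The 4 neuron markers summed to 3719 to 5773 CPM in APP/Tau and 4457 to 6125 CPM in control hippocampi. The 7 hippocampus markers summed to 248 to 573 CPM in APP/Tau and 507 to 676 CPM in control hippocampi. The part of such shifts between cell types in the 9 genes was not tested.

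The receptor Trem2 read 50.1, 11.9, 52.0 and 24.1 CPM in the APP/Tau trained hippocampi and 21.3, 19.4, 17.7, 13.7 and 64.0 CPM in the APP/Tau naive hippocampi. The 11 control hippocampi lay between 5.59 and 11.4 CPM with a median of 8.65 CPM. The lowest APP/Tau library, trained replicate 2, stood just above the highest control, so the genotypes did not overlap, but 3 APP/Tau libraries stood at 50.1 CPM or more and the other 6 at 24.1 CPM or less. The change corresponded to 3.6-fold (edgeR quasi-likelihood F test, adjusted p = 0.000484), with a 95% interval of the log2 fold change of 1.28 to 2.42.

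Tyrobp, the adaptor that carries the ITAM, read 50.1, 8.84, 42.6 and 22.8 CPM in APP/Tau trained and 18.3, 16.5, 14.9, 11.1 and 47.2 CPM in APP/Tau naive hippocampi. The 11 controls read 5.08 to 6.95 CPM with a median of 6.1 CPM. The genotypes did not overlap here either, and the 3 highest libraries were those that were highest for Trem2. The change of 2.14 was 4.41-fold (edgeR, adjusted p = 9.88e-05). Hcst, the adaptor of the 3-kinase branch, was close to the detection limit, with 4 to 71 counts in APP/Tau hippocampi and 0 to 16 in controls. Its levels were 0.293, 0.0377, 0.559 and 0.339 CPM in APP/Tau trained and 0.138, 0.145, 0.127, 0.107 and 0.388 CPM in APP/Tau naive libraries. Controls lay between 0 and 0.185 CPM (median 0.0276). The change of 2.52 ± 0.59 passed (edgeR, adjusted p = 0.0116), but the groups overlapped, and the highest control, naive replicate 1, was the library richest in 18S RNA. Tyrobp and Hcst are neighbours that end towards each other in the mouse annotation. Counting by strand is not stated in the sources used here, so reads that run past the end of either gene cannot be told apart. Their part in the Hcst counts was not tested.

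**Figure D1:**
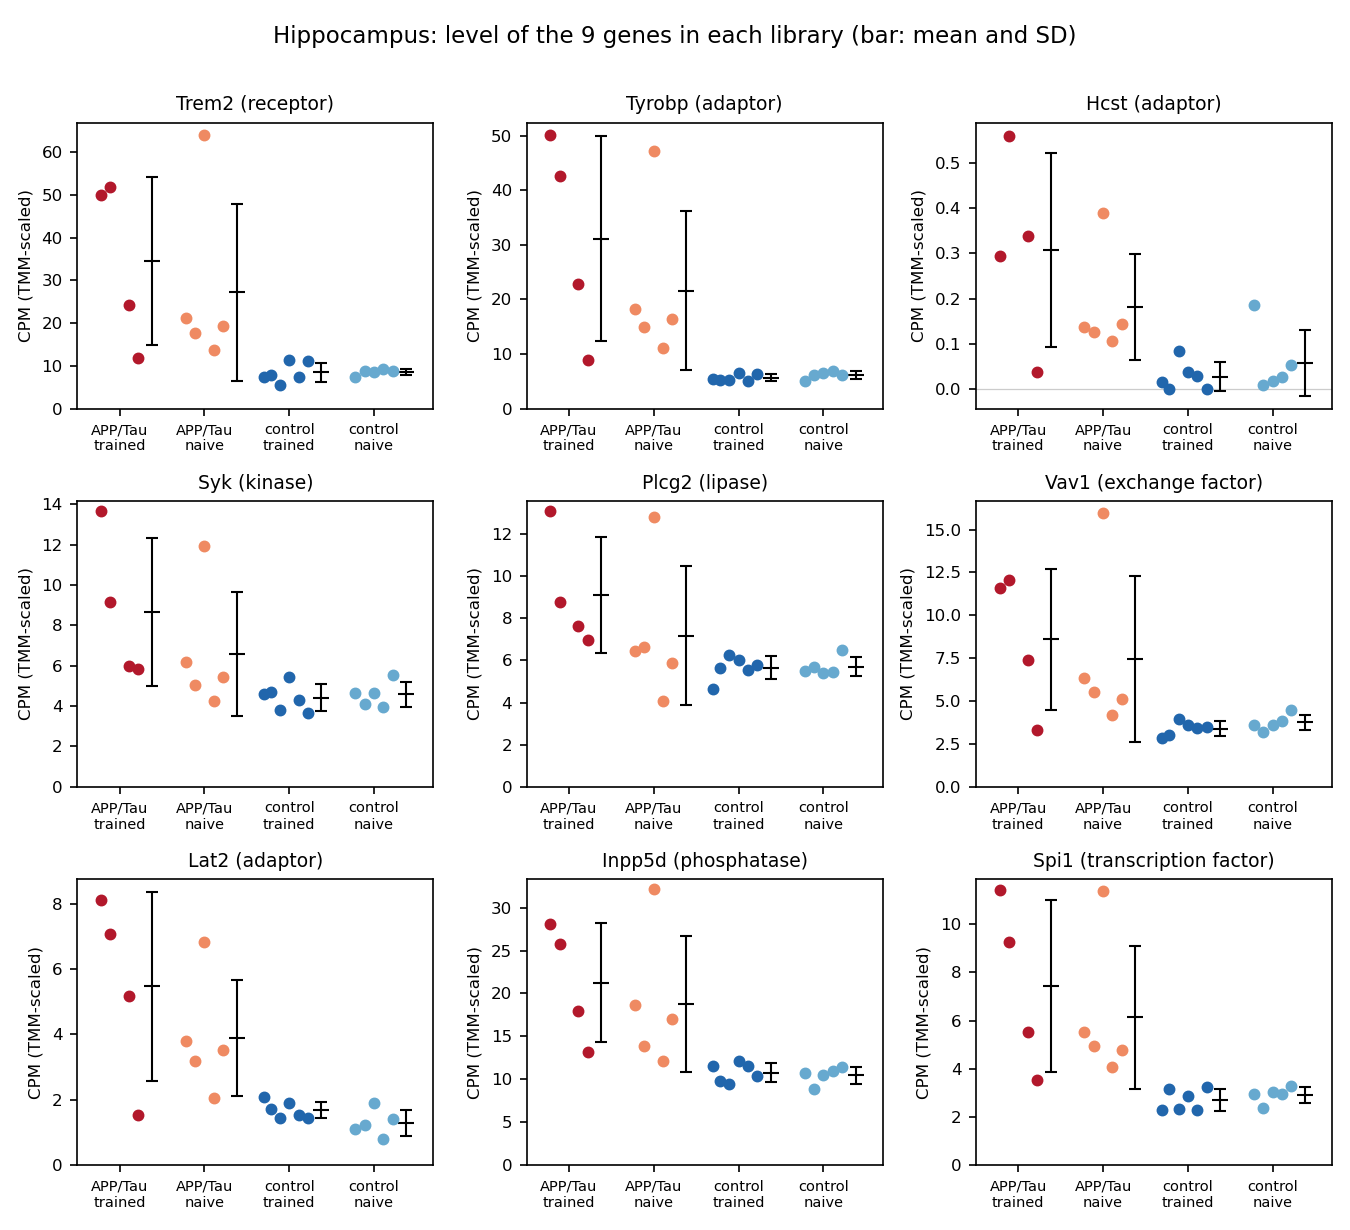
Level of each of the 9 genes in each hippocampal library (points; CPM with TMM scaling on a linear axis) by group, with group mean and SD beside the points. All APP/Tau points of Trem2, Tyrobp and Spi1 lie above all control points, and the same 3 APP/Tau libraries (trained replicates 1 and 3, naive replicate 5) are the highest for Trem2 and for 7 of the 8 other genes. The share of all genes led by these libraries was not computed.

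Below the adaptors, Syk, the tyrosine kinase that binds the ITAM, read 13.6, 5.82, 9.17 and 5.97 CPM in APP/Tau trained and 6.19, 5.45, 5.03, 4.25 and 11.9 CPM in APP/Tau naive hippocampi. Its control range was 3.65 to 5.52 CPM (median 4.62). In 6 of 9 APP/Tau libraries Syk lay above every control (log2 change 0.75 ± 0.18; edgeR, adjusted p = 0.012). Plcg2, the phospholipase that Syk activates, changed least of the 9. It read 13.1, 6.96, 8.8 and 7.64 CPM in APP/Tau trained and 6.45, 5.9, 6.64, 4.08 and 12.8 CPM in APP/Tau naive hippocampi, against 4.67 to 6.51 CPM (median 5.65) in controls. The lowest library for Plcg2 was an APP/Tau library, naive replicate 4, and the call (edgeR, adjusted p = 0.0383) was lost in 11 of 20 fits that each left out 1 library. Without the 3 libraries rich in 18S RNA, Plcg2 stood at 0.54 (edgeR, adjusted p = 0.097) and Syk at 0.75 (edgeR, adjusted p = 0.053).

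Vav1, an exchange factor for Rac, read 11.6, 3.31, 12.1 and 7.39 CPM in APP/Tau trained and 6.32, 5.15, 5.52, 4.21 and 15.99 CPM in APP/Tau naive hippocampi. Controls had 2.83 to 4.46 CPM of Vav1 (median 3.6), and the change was 1.16 ± 0.23 (edgeR, adjusted p = 0.00343). Lat2, a membrane scaffold that is phosphorylated below Syk, read 8.11, 1.53, 7.06 and 5.18 CPM in APP/Tau trained and 3.81, 3.53, 3.18, 2.06 and 6.83 CPM in APP/Tau naive libraries. In controls Lat2 had 0.799 to 2.07 CPM (median 1.45), and the change was 1.65 ± 0.24 (edgeR, adjusted p = 0.000484). For both genes APP/Tau trained replicate 2 fell within the control range while most other APP/Tau libraries did not. The end of Lat2 overlaps that of Rfc2 on the other strand, and Rfc2, a subunit of the clamp loader of DNA replication, gave -0.0042 ± 0.038 (edgeR, adjusted p = 0.957).

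Inpp5d, the lipid phosphatase that restrains the pathway, read 28.1, 13.1, 25.7 and 17.9 CPM in APP/Tau trained and 18.6, 17.1, 13.8, 12.1 and 32.1 CPM in APP/Tau naive hippocampi. Control libraries ran from 8.8 to 12.2 CPM (median 10.7). In 8 of 9 APP/Tau libraries it lay above every control, and it changed by 0.91 ± 0.15 (edgeR, adjusted p = 0.0011). Spi1, a transcription factor that myeloid cells require, read 11.4, 3.55, 9.29 and 5.51 CPM in APP/Tau trained and 5.51, 4.78, 4.94, 4.07 and 11.4 CPM in APP/Tau naive libraries. For Spi1 controls read 2.29 to 3.27 CPM (median 2.94). The genotypes did not overlap for Spi1, which changed by 1.27 ± 0.20 (edgeR, adjusted p = 0.000646). Every APP/Tau library thus lay above every control for 3 of 9 genes (Trem2, Tyrobp and Spi1), and it did so for 0.403% of all genes tested.

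Because the genes moved together in the hippocampus, their promoters were searched for AGGAAGT, a run of 7 letters that holds the GGAA core recognised by ETS factors such as Spi1; the motif was chosen after the sequences had been read. RefSeq promoter windows of build GRCm38.p6, 250 bases before to 50 bases after a transcript start, were matched for 6 of the 9 genes in 7 windows (Syk has 2), and Tyrobp, Lat2 and Spi1 were not matched. On either strand the motif occurred in 3 of the 7 windows and in 9.35% of all 32851 windows. Hcst held it at positions -46 and -17 from the transcript start, Vav1 at -10 and Inpp5d at -19 and 32, all on the strand of the gene. The windows of Trem2, Syk and Plcg2 did not hold these 7 letters, though that of Trem2 holds the shorter GGAA core. The longer form GAGGAAGT, which overlaps the shorter, occurred once each in Vav1 and Inpp5d and in 3.2% of all windows. As the motif was chosen after reading the sequences, these shares do not test for an excess in the genes. The 250 bases before the start are shown for the receptor, which lacks the motif, and for the 3 genes that hold it, with the motif in capitals. Trem2 lies at chr17:48346151-48346400 on the plus strand and Hcst at chr7:30419855-30420104 on the minus strand. Vav1 lies at chr17:57278850-57279099 and Inpp5d at chr1:87620062-87620311 on the plus strand, and each is written 5′ to 3′ along its gene.
Trem2: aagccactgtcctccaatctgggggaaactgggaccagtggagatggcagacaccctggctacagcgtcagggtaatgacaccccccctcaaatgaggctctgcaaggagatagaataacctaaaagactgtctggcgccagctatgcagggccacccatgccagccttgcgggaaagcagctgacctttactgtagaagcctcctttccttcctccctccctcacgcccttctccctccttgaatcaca
Hcst: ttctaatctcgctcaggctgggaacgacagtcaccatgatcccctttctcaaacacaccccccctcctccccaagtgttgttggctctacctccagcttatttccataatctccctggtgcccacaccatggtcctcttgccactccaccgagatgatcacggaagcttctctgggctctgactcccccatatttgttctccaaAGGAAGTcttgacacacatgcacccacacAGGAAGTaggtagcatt
Vav1: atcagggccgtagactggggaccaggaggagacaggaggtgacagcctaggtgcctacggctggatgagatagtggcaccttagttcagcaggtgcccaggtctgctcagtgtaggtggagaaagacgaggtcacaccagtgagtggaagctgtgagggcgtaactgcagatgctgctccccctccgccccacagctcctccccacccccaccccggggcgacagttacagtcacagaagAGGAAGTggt
Inpp5d: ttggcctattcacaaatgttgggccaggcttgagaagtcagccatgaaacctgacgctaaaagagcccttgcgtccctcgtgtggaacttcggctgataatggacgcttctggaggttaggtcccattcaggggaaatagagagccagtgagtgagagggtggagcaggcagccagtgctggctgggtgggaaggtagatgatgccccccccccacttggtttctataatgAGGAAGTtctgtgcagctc

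Split by training, the hippocampal difference was called for 8 of 9 genes among trained mice, where 2.8% of all genes were called, and for 1 of 9 among naive mice, where 0.202% were called. Among trained mice Tyrobp changed by 2.46 ± 0.37, Trem2 by 2.03 ± 0.38 and Spi1 by 1.46 ± 0.28 (edgeR, adjusted p = 0.00229, 0.00822 and 0.00828), and Plcg2 gave 0.69 ± 0.22 (edgeR, adjusted p = 0.0919). Among naive mice Tyrobp changed by 1.82 ± 0.37 (edgeR, adjusted p = 0.0468), Lat2 gave 1.59 ± 0.35 and Trem2 1.67 ± 0.39 (edgeR, adjusted p = 0.0564 and 0.0725). All 9 estimates were above 0 in both training states, and every APP/Tau library lay above every control for 6 of 9 genes among trained mice (2.72% of all genes tested) and for 5 of 9 among naive mice (2.39% of all genes tested). The count of 8 among trained mice fell to 1 without APP/Tau trained replicate 1 or replicate 3, and to 5 without any 1 of control trained replicates 1, 2, 4, 5 and 6. It was 0 without the 3 libraries rich in 18S RNA or with limma-voom. Over the 8 settings other than leaving out 1 library, the change among trained mice stayed between 1.87 and 2.12 for Trem2, 2.22 and 2.50 for Tyrobp, and 1.38 and 1.49 for Spi1. The count of 1 among naive mice became 0 in 17 of 20 fits that left out 1 library, 3 without APP/Tau trained replicate 1 or naive replicate 4, and 5 without APP/Tau trained replicate 2. For these alternative fits the share of all genes called is not given here.

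In the BLA 3 of 9 genes were higher in APP/Tau mice: Tyrobp, Trem2 and Inpp5d. Of all 23168 genes tested there 1.18% were called and 0.997% were called as higher. Tyrobp changed by 1.45 ± 0.25, Trem2 by 1.199 ± 0.25 and Inpp5d by 0.53 ± 0.12 (edgeR, adjusted p = 0.0125, 0.0254 and 0.0412). The other 6 estimates were also above 0, between 0.33 and 1.24, and the median over the 9 genes was 0.60, against 0.0068 over all genes tested.

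Trem2 read 45.8, 9.29, 29.8 and 16.95 CPM in APP/Tau trained and 10.7, 22.1, 13.1, 10.4 and 29.2 CPM in APP/Tau naive BLA libraries. The 10 controls read 6.72 to 12.9 CPM (median 8.91). Tyrobp read 42.1, 7.56, 26.4 and 14.1 CPM in APP/Tau trained and 10.8, 19.2, 11.1, 8.13 and 23.2 CPM in APP/Tau naive libraries, against 4.75 to 8.35 CPM (median 6.8) in controls. Trem2 lay above every control in 6 of 9 APP/Tau libraries and Tyrobp in 7 of 9, so the genotypes overlapped for both. Inpp5d read 22.8, 12.8, 20.2 and 12.7 CPM in APP/Tau trained and 12.6, 17.3, 14.8, 12.2 and 18.8 CPM in APP/Tau naive libraries. Its controls read 8.06 to 13.5 CPM (median 11.5), and 5 of 9 APP/Tau libraries lay above every control.

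Spi1 missed the threshold in the BLA with 0.63 ± 0.16 (edgeR, adjusted p = 0.0531), as did Vav1 with 0.60 ± 0.18 (edgeR, adjusted p = 0.0864) and Plcg2 with 0.40 ± 0.15 (edgeR, adjusted p = 0.15). Spi1 ranged from 3.25 to 9.55 CPM in APP/Tau and from 2.39 to 4.03 CPM in control libraries, and Vav1 from 3.69 to 11.5 CPM in APP/Tau and from 3.19 to 4.78 CPM in control libraries. Hcst gave 1.24 ± 0.52 (edgeR, adjusted p = 0.204) from 0 to 26 counts in APP/Tau and 1 to 15 counts in control libraries. Lat2 gave 0.52 ± 0.23 (edgeR, adjusted p = 0.214) and Syk gave 0.33 ± 0.19 (edgeR, adjusted p = 0.355). For Syk, Lat2 and Hcst the groups overlapped. Every APP/Tau library lay above every control for 0 of 9 genes in the BLA, as it did for 0.0388% of all genes tested.

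The BLA count of 3 was 1 in each fit without APP/Tau trained replicate 1 or 3, APP/Tau naive replicate 5, control trained replicate 1, 3, 4 or 5, or control naive replicate 2 or 5. It was 7 without APP/Tau trained replicate 2, the library lowest for Trem2 and Tyrobp. It was 5 with DESeq2, and 0 with limma-voom and with the mean log2 level of the striatal and central amygdala markers as a covariate. The share of all genes called in each of these fits is not given here. The lowest change over the 7 settings other than leaving out 1 library was 1.03 for Trem2, 1.28 for Tyrobp and 0.45 for Inpp5d. The striatal and central amygdala markers, of neighbouring tissue, summed to 484 to 3153 CPM in APP/Tau and 324 to 2729 CPM in control punches (0 of 10 called by edgeR, median change 0.63). The 4 oligodendrocyte markers summed to 2029 to 4300 CPM in APP/Tau and 1581 to 3191 CPM in control punches (0 of 4 called by edgeR, median 0.59). The 2 BLA markers summed to 56.7 to 219 CPM in APP/Tau and 90.2 to 347 CPM in control punches (0 of 2 called by edgeR, median -0.74). The part of the oligodendrocyte and BLA markers in the BLA result was not tested. Split by training, 0 of 9 genes passed in the BLA among trained mice (edgeR; 0.0432% of all genes called, 7 of 9 members and 10.3% of all genes at an unadjusted p under 0.05, 2 with DESeq2 and 0 with limma-voom). Among naive mice 0 of 9 passed as well (edgeR; 0.0388% of all genes called, 4 of 9 members and 13.2% of all genes at an unadjusted p under 0.05, 0 with DESeq2 and with limma-voom). Among trained mice the count was 6 without APP/Tau trained replicate 2. Trem2 gave 1.54 ± 0.36 among trained and 0.85 ± 0.34 among naive mice (edgeR, adjusted p = 0.148 and 0.309).

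**Figure D2:**
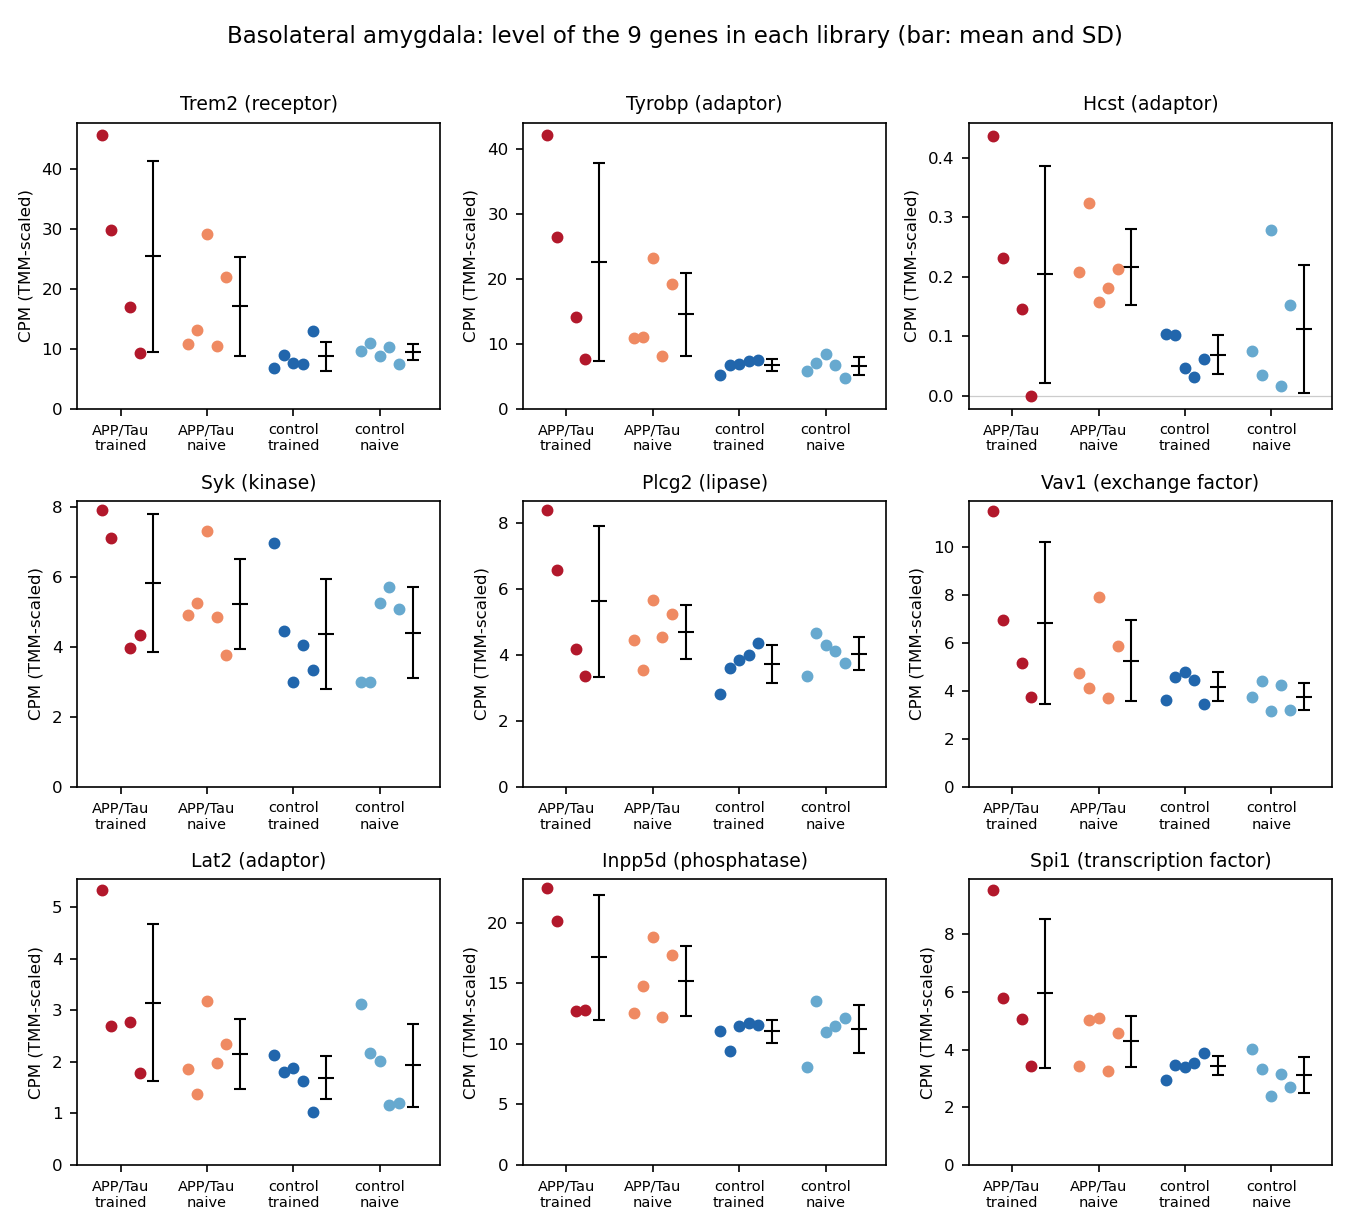
Level of each of the 9 genes in each BLA library (points; CPM with TMM scaling on a linear axis) by group, with group mean and SD beside the points. Trained replicate 1 is the highest APP/Tau library for Trem2 (45.8 CPM) and Tyrobp (42.1 CPM), and the genotypes overlap for all 9 genes over both training states.

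**Figure D3:**
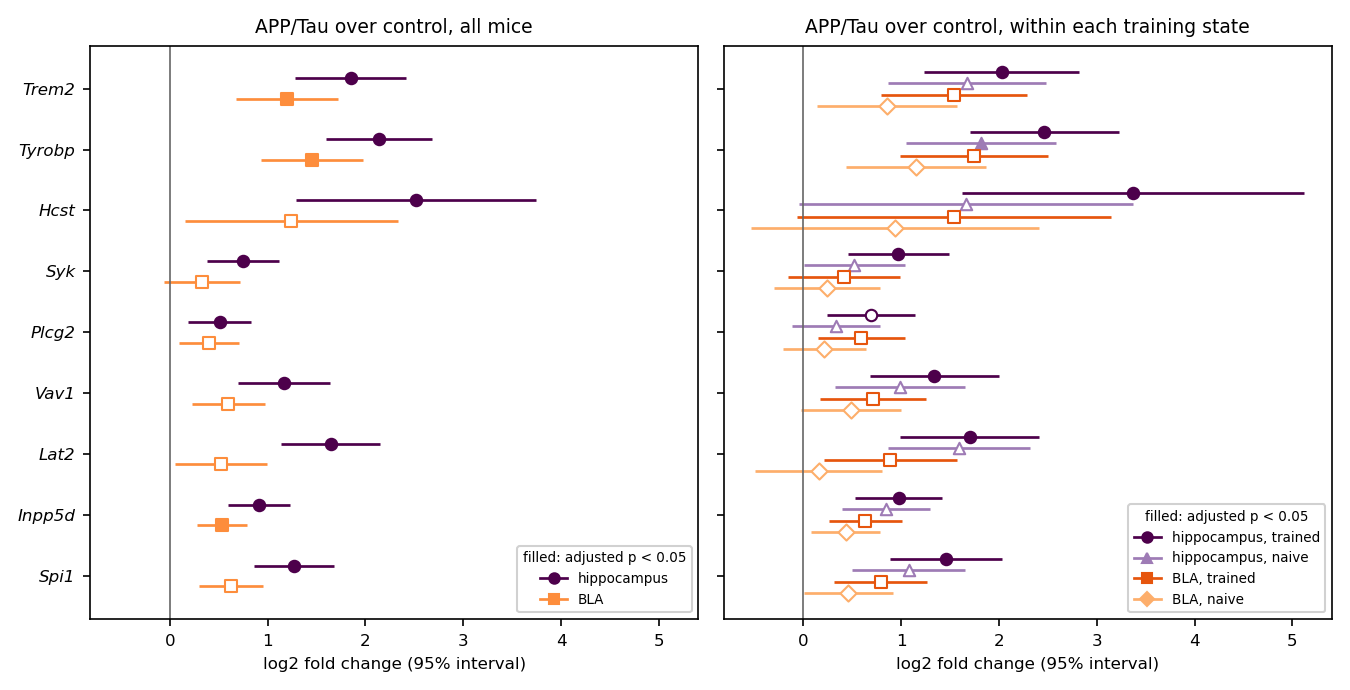
Log2 fold change of APP/Tau over control with 95% interval for each gene, averaged over training states (left) and within each state (right); filled symbols passed adjusted p < 0.05. In the left panel all 9 hippocampal symbols are filled and lie at or right of 0.51, and 3 BLA symbols are filled (Trem2, Tyrobp and Inpp5d).

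The genotype difference was set against tissue in a fit over all 39 libraries. The hippocampal minus the BLA difference was above 0 for all 9 genes, between 0.12 for Plcg2 and 1.28 for Hcst. None of the differences passed, 0 of 9 (edgeR; 0.0262% of 26725 genes called, 2 of 9 members and 8.34% of all genes at an unadjusted p under 0.05, 0 with DESeq2 and with limma-voom). Those 2 were Lat2 at 1.14 ± 0.34, with a 95% interval of 0.44 to 1.84 (edgeR, adjusted p = 0.317), and Spi1 at 0.66 ± 0.26 (edgeR, adjusted p = 0.47). For Trem2 the difference of 0.67 had an interval of -0.11 to 1.45 and for Tyrobp the difference of 0.71 had one of -0.053 to 1.47. A larger number of called genes in the hippocampus was thus not shown to be a larger change there for any of the 9.

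The tissues themselves were compared in the same fit, which does not pair libraries across tissues. Every hippocampal library had more input RNA and more counts than every BLA library. Differences in level between the tissues, given below, therefore cannot be told apart from effects of input or depth. Plcg2 was the 1 gene of 9 that differed between hippocampus and BLA in control mice, by 0.53 ± 0.15 (edgeR, adjusted p = 0.00317), where 55.4% of all genes were called. In APP/Tau mice Plcg2 was higher in the hippocampus by 0.65 ± 0.16 and Lat2 by 0.82 ± 0.25 (edgeR, adjusted p = 0.000956 and 0.00669), 2 of 9 where 51% of all genes were called. That count became 8 without BLA APP/Tau trained replicate 1 or hippocampal APP/Tau trained replicate 2. It was 5 without hippocampal APP/Tau naive replicate 4, and 4 without BLA APP/Tau naive replicate 5 or hippocampal APP/Tau trained replicate 4. With libraries paired by the number in their labels that recurs across tissues, the count was 8. The labels do not say that this number is the mouse. The shares of all genes called in these further fits are not given here. Their counts are therefore not shown to be particular to the 9 genes. With both tissues scaled together the order of the group means for Trem2 was hippocampus APP/Tau trained (34.5 ± 19.8 CPM), hippocampus APP/Tau naive (27.1 ± 20.8 CPM), BLA APP/Tau trained (25.5 ± 15.8 CPM) and BLA APP/Tau naive (17.1 ± 8.21 CPM). There followed BLA control naive (9.56 ± 1.39 CPM), BLA control trained (8.82 ± 2.52 CPM), hippocampus control naive (8.47 ± 0.71 CPM) and hippocampus control trained (8.43 ± 2.30 CPM). No pair of neighbours in that order differed by more than both of their SDs. For Tyrobp the gap between BLA APP/Tau naive (14.5 ± 6.35 CPM) and BLA control trained (6.78 ± 0.98 CPM) was wider than both SDs.

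No shift of the chain with fear conditioning was detected 1 h after the shock. Trained minus naive differences passed for 0 of 9 genes in APP/Tau mice and in controls of either tissue, and the interaction with genotype passed for 0 of 9 in either tissue, in comparisons where 0% of all genes were called by edgeR. DESeq2 and limma-voom also called 0 of 9. At an unadjusted p under 0.05 stood 1 of 9 members in the BLA of APP/Tau mice, Spi1 at 0.48 ± 0.23, beside 5.85% of all genes. In the other 5 of these comparisons it was 0 of 9, and 2.09 to 4.59% of all genes. For Trem2 the training difference was 0.34 in APP/Tau hippocampi (95% interval -0.48 to 1.17) and -0.010 in control hippocampi (-0.77 to 0.75). It was 0.57 in APP/Tau BLA (-0.17 to 1.31) and -0.11 in control BLA (-0.83 to 0.60). The groups of a fit share the estimate of the spread, so the control intervals do not measure the spread of controls alone. In the hippocampus the SD of log2 Trem2 was 0.88 over APP/Tau and 0.29 over control libraries. The interaction was above 0 for all 9 genes in both tissues, between 0.11 and 1.71 in the hippocampus and between 0.17 and 0.73 in the BLA. For Trem2 its interval ran from -0.76 to 1.47 in the hippocampus and from -0.34 to 1.71 in the BLA. The upper limits for APP/Tau mice lie above 1, so a 2-fold rise of Trem2 with training lies within the intervals.

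Each gene was next set against the microglial markers of its own library, as the log2 ratio of its level to the mean of the 9 homeostatic markers. In the hippocampus Tyrobp was higher in APP/Tau mice relative to these markers by 1.39, Trem2 by 1.13, Lat2 by 0.94, Spi1 by 0.63, Vav1 by 0.48 and Inpp5d by 0.34 (exact permutation within training states, 2-sided, adjusted over 26 tests, p = 0.000164, 0.000164, 0.00164, 0.000164, 0.00983 and 0.000983). Syk gave 0.15 and Plcg2 -0.066 (exact permutation, adjusted p = 0.33 and 0.553), so a change beyond that of the homeostatic markers was not shown for the kinase or the phospholipase. Against 6 pan-microglial markers (Csf1r, Aif1, Itgam and others), which changed more themselves, Trem2 stood at 0.69, Tyrobp at 0.95, Lat2 at 0.51 and Spi1 at 0.19, and these still passed. Vav1 (0.041) and Inpp5d (-0.10) did not (exact permutation, adjusted p = 0.706 and 0.194). Against those markers Syk was lower, at -0.29, and Plcg2 was lower, at -0.50 (exact permutation, adjusted p = 0.019 and 0.00102). In the BLA the ratio to the homeostatic markers was higher for Tyrobp by 1.00, Trem2 by 0.77 and Inpp5d by 0.25 (exact permutation, adjusted p = 0.000409, 0.00281 and 0.00919), and Spi1 gave 0.30 (exact permutation, adjusted p = 0.0505). The Hcst ratio in the hippocampus was 0.67 with a pseudocount of 0.1 CPM and -0.24 with one of 1 CPM, which is above all of its levels, and it reversed in the BLA as well.

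**Figure D4:**
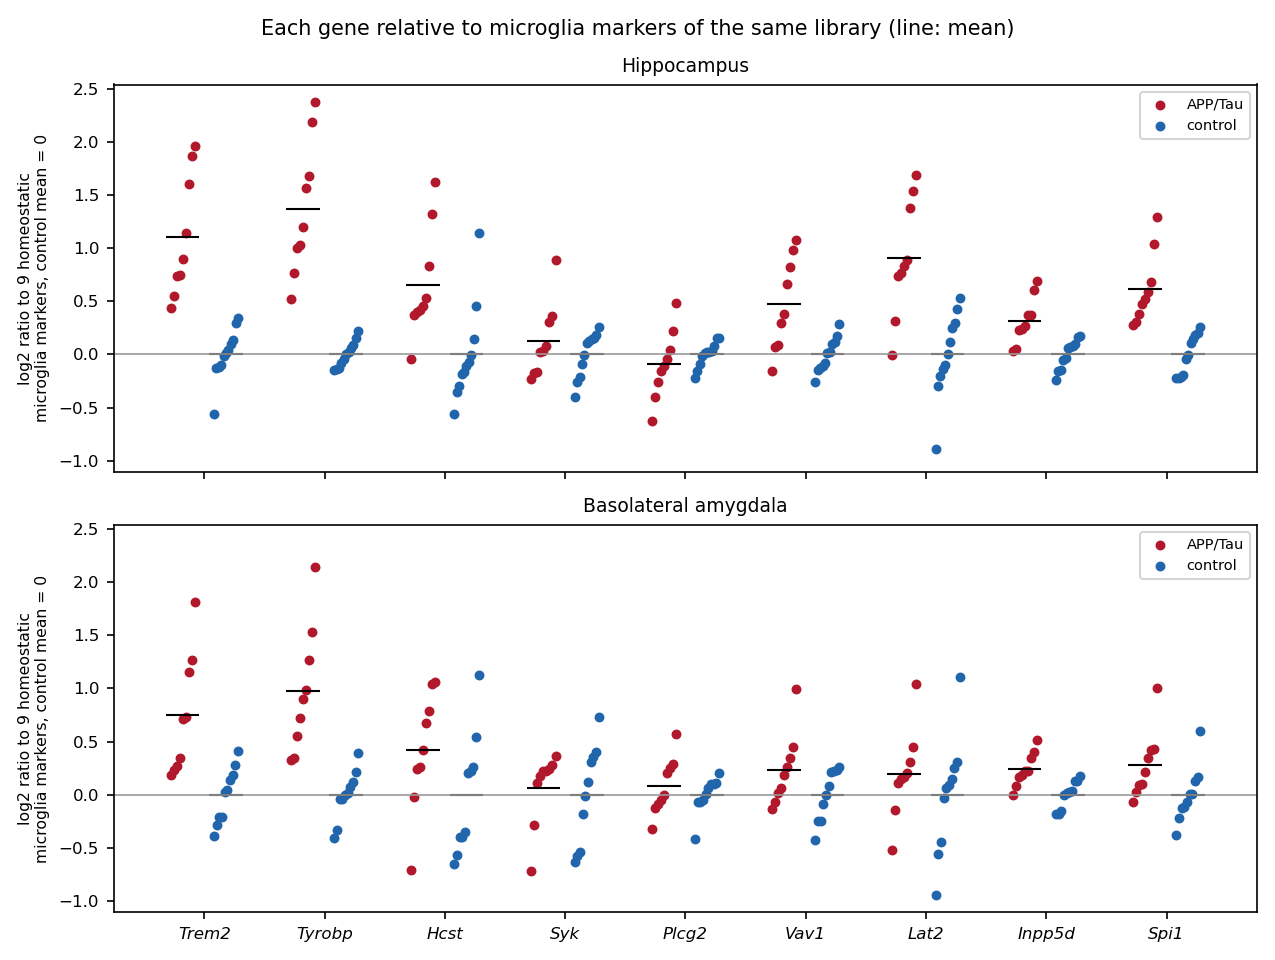
Log2 ratio of each gene to the mean of 9 homeostatic microglia markers in the same library (points, 1 per library; lines, genotype means), with the control mean set to 0, for APP/Tau (left of each pair) and control libraries. In the hippocampus the APP/Tau points of Trem2, Tyrobp and Spi1 lie above the control points, and those of Syk and Plcg2 overlap them.

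In the hippocampus the receptor changed less than its adaptor. The log2 ratio of Trem2 to Tyrobp averaged 0.25 ± 0.14 in 9 APP/Tau and 0.51 ± 0.19 in 11 control hippocampi, a difference of -0.27 (exact permutation, adjusted p = 0.00968), and no APP/Tau library exceeded the control median. In the BLA it averaged 0.22 ± 0.11 in 9 APP/Tau and 0.45 ± 0.28 in 10 control libraries, a difference of -0.23 that missed the threshold (exact permutation, adjusted p = 0.0632). The ratio of Plcg2 to Syk in the hippocampus differed by -0.22 and that of Inpp5d to Syk by 0.19 (exact permutation, adjusted p = 0.0581 and 0.0635).

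Trem2 and Tyrobp spread more widely among APP/Tau mice than among controls. In the hippocampus the highest APP/Tau library held 5.37 times the Trem2 level of the lowest, against 2.03 times among controls, and for Tyrobp these ratios were 5.66 and 1.37. The labels give each library a number that recurs across the tissues. The 3 numbers highest for Trem2 in the hippocampus (18, 17 and 1) were also the 3 highest in the BLA, where they read 29.2, 29.8 and 45.8 CPM. Number 10 (APP/Tau trained replicate 2 in both tissues) was lowest in both, at 11.9 CPM in the hippocampus and 9.29 CPM in the BLA. The libraries numbered 18, 17 and 1 were also the 3 highest for 7 of the 8 other genes in the hippocampus and for 6 of the 8 others in the BLA. The share of all genes led by these libraries was not computed, so the counts are not shown to be particular to the chain. Among the 6 hippocampal APP/Tau libraries below the gap the level across tissues gave r = 0.64 for Trem2 (rho = 0.71; exact permutation, adjusted p = 0.504 and 0.362 over 9 genes; r = 0.043 without the 2 farthest libraries), so no relation was shown within them.

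**Figure D5:**
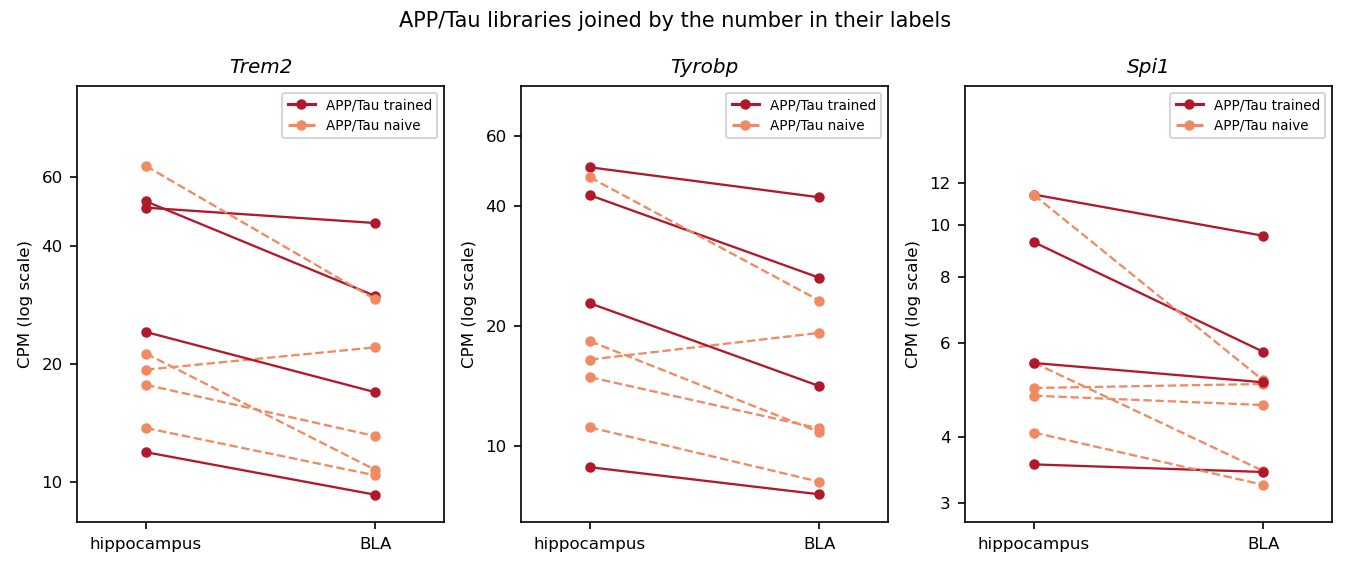
CPM of Trem2, Tyrobp and Spi1 (log axis) in the 9 APP/Tau libraries of the hippocampus and the BLA, with lines joining libraries that carry the same number in their labels (solid, trained; dashed, naive). The 3 libraries highest for Trem2 in the hippocampus, at 50.1 to 64.0 CPM, are the 3 highest in the BLA, at 29.2 to 45.8 CPM.

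Between mice of 1 genotype the genes were compared with Trem2 in 32 relations, whose points share a library. Because the 9 hippocampal APP/Tau libraries fell into separate clusters, only the 6 below the gap were used. There Tyrobp followed Trem2 with r = 0.997 and rho = 1 (exact permutation, adjusted p = 0.00635 and 0.0148; r = 0.993 without the 2 farthest libraries). Lat2 followed with r = 0.995 and rho = 1 (exact permutation, adjusted p = 0.00635 and 0.0148; r = 0.97 without them). Vav1, Spi1 and Hcst also passed by Pearson's r at 0.976, 0.971 and 0.888. Syk (r = 0.47, rho = 0.60) and Plcg2 (r = 0.44, rho = 0.26) did not pass (exact permutation, adjusted p of r 0.466 and 0.556). In the 9 BLA APP/Tau libraries 6 of 8 genes passed, Tyrobp with r = 0.991 and rho = 1 (exact permutation, adjusted p = 8.82e-05 and 0.000176; r = 0.982 without the 2 farthest). Plcg2 was among them with r = 0.90 and rho = 0.85 (exact permutation, adjusted p = 0.00513 and 0.0243; r = 0.78 without the 2 farthest). In the 11 hippocampal controls Tyrobp passed with r = 0.78 and rho = 0.83 (permutation, adjusted p = 0.00918 and 0.0148; r = 0.80 without the 2 farthest) and no other gene did. In the 10 BLA controls 0 of 8 passed, with r between -0.46 and 0.63. The share of all genes that pass this test was not computed. The counts are therefore not shown to be particular to the chain.

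Ranked over all genes of at least 1 CPM by the correlation of their deviations from group means with those of Trem2, Tyrobp came first of 16629 genes in the hippocampus (r = 0.963 over 20 libraries). It stood ahead of the complement gene C1qb (0.961), the oxidase subunit Ncf1 (0.958), Laptm5 (0.955), C1qa (0.953) and the protease Ctsd (0.953). The other members ranked from 38 (Spi1) to 3651 (Hcst), with Syk at 554, Lat2 at 657 and Plcg2 at 853. These ranks include the 3 APP/Tau libraries above the gap in Trem2. In the BLA the lysosomal genes Ctsh (0.965) and Ctss (0.954), C1qb (0.964) and the tetraspanin Cd9 (0.955) were among the first of 16424 genes over 19 libraries, and Tyrobp was at rank 17 with 0.935. The other members ranked there from 117 (Plcg2) to 4182 (Syk), with Lat2 at 1688 and Hcst at 2378.

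Upstream of the receptor, 4 of 6 genes for ligands and processing rose in APP/Tau hippocampi and 2 of 6 in the BLA. Beside this and the gene lists below, 7.27% of all genes tested were called as higher in the hippocampus and 0.997% in the BLA. The ligand genes Apoe and Clu rose in both tissues. Hippocampal changes were 0.75 ± 0.19 and 0.69 ± 0.14 (edgeR, adjusted p = 0.018 and 0.00618), and those in the BLA 0.57 ± 0.13 and 0.49 ± 0.11 (edgeR, adjusted p = 0.0412 for each). Lgals3, a lectin that binds Trem2, rose by 2.77 ± 0.46 in the hippocampus (edgeR, adjusted p = 0.00104), and Adam17, a protease that can shed Trem2, by 0.35 ± 0.11 (edgeR, adjusted p = 0.0477). Adam10, the other such protease, gave 0.081 ± 0.040 in the hippocampus and -0.082 ± 0.060 in the BLA, and neither passed. Astrocytes also make Apoe and Clu, and 3 of 4 astrocyte markers rose in the hippocampus. They summed there to 881 to 1715 CPM in APP/Tau and 836 to 971 CPM in control libraries, and their part in these changes was not tested.

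Among 10 other receptors that pair with Tyrobp or Hcst, 4 in the hippocampus and 3 in the BLA had enough counts to test, and 3 and 0 of them rose. They were Cd300lb (3.43 ± 0.75), the lectin Clec5a (1.24 ± 0.26) and Siglech (0.50 ± 0.15) in the hippocampus (edgeR, adjusted p = 0.0078, 0.00549 and 0.0366). Of the 26 other kinases, adaptors and enzymes of ITAM signalling 14 rose and 1 fell in the hippocampus, with a median of 0.36, and 2 rose in the BLA, with a median of 0.15. Btk, a kinase that acts on Plcg2, rose by 1.5 ± 0.23, and the myeloid Src family kinase Fgr rose by 3.51 ± 0.57 (edgeR, adjusted p = 0.00055 and 0.000984). Fcer1g, another ITAM adaptor, rose by 1.52 ± 0.25, and the ubiquitin ligase Cbl fell by 0.17 on the log2 scale (edgeR, adjusted p = 0.00106 and 0.0213). In the BLA Fcer1g and the small GTPase Rac2 rose by 0.86 ± 0.18 and 0.77 ± 0.16 (edgeR, adjusted p = 0.0265 and 0.0259).

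Of 7 inhibitors of the pathway 3 rose in the hippocampus and 1 in the BLA. The phosphatase Ptpn6 was higher by 1.70 ± 0.27 in hippocampus and 1.12 ± 0.22 in BLA (edgeR, adjusted p = 0.000872 and 0.0198). Dok1 and the Inpp5d relative Inppl1 rose by 0.74 ± 0.14 and 0.29 ± 0.087 in the hippocampus (edgeR, adjusted p = 0.00266 and 0.0379), and the list's median was 0.012 there. Of 11 other myeloid transcription factors 8 rose in the hippocampus and 1 in the BLA. Irf8, a partner of Spi1, changed by 1.70 ± 0.26 in hippocampus and by 0.96 ± 0.21 in BLA (edgeR, adjusted p = 0.000576 and 0.034). Runx1 and Ikzf1 rose by 1.30 ± 0.24 and 0.98 ± 0.16 in the hippocampus (edgeR, adjusted p = 0.0024 and 0.00111).

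Markers of the cells that carry the chain moved beside it. Of the 9 homeostatic microglia markers 6 rose in the hippocampus and 1 in the BLA. Cx3cr1, P2ry13 and Gpr34 rose by 0.89 ± 0.16, 0.60 ± 0.11 and 0.72 ± 0.14 in the hippocampus (edgeR, adjusted p = 0.0023, 0.00333 and 0.00415). Tmem119 gave -0.037 ± 0.086 there (edgeR, adjusted p = 0.818). Their sum was 212 to 532 CPM in APP/Tau and 187 to 217 CPM in control hippocampi, and 183 to 297 CPM in APP/Tau and 162 to 224 CPM in control BLA libraries. All 6 pan-microglial markers rose in the hippocampus and 3 of 6 in the BLA. Markers of other leukocytes were summed in the hippocampus. Neutrophil markers summed to 0.0642 to 1.55 CPM in APP/Tau and 0 to 0.697 CPM in control libraries, with 1 of 4 tested rising and Ly6g at 0 in every control. Natural killer cell markers summed to 0.264 to 0.803 CPM in APP/Tau and 0.117 to 0.613 CPM in control hippocampi, with 1 of 4 rising. T cell markers summed to 3.22 to 6.95 CPM in APP/Tau and 2.49 to 4.57 CPM in control hippocampi, with 0 of 9 called by edgeR. Monocyte markers summed to 0.226 to 1.99 CPM in APP/Tau and 0.368 to 1.51 CPM in control hippocampi, with 0 of 3 called by edgeR. B cell markers summed to 0.791 to 2.15 CPM in APP/Tau and 0.61 to 8.07 CPM in control hippocampi, with 0 of 4 called by edgeR. Mast cell markers summed to 0 to 6.17 CPM in APP/Tau and 0 to 1.71 CPM in control hippocampi, with 0 of 4 called by edgeR. Of 4 oligodendrocyte markers 3 rose in the hippocampus, with sums of 3875 to 7565 CPM in APP/Tau and 3115 to 4986 CPM in control libraries. The part of these cells in the 9 genes was not tested.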

How the data were processed

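The authors deposited raw read counts per gene, 1 table for each tissue, per the file headers. Poly(A) RNA was sequenced as paired reads of 50 bases from 50 ng (hippocampus) or 10 ng (BLA) of input RNA, per the labels' protocols, and the submitters' processing notes name Trimmomatic 0.39 and mm39; the sources used here do not give the aligner, counter or strand setting. Groups came from the labels, which do not say that replicates are separate mice, so p-values measure the spread between libraries. The members and gene lists were chosen with earlier results of these data known.

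Each tissue was fitted over its 4 groups with edgeR 4.0.16 in R 4.3.3 (CPM with TMM factors, filterByExpr with a minimum count of 10 and total of 15, quasi-likelihood F test, Benjamini-Hochberg over all genes tested, threshold 0.05), and a further fit held all 39 libraries. The standard error is the log2 fold change over the root of F. Because the groups of a fit share the estimate of the spread, leaving out a library can move calls between other groups. Ratios and correlations used log2(CPM + 0.1). Permutation tests were exact for all ratios and for correlations over fewer than 10 libraries, and used 100000 resamples for correlations over 10 or more (SciPy 1.17.1). On simulated hippocampal counts the genotype test recovered 72.4% of genes changed by 1 on the log2 scale and 90.9% of those changed by 2, and on simulated BLA counts 80.8% and 90.6%. It also called 10 unchanged genes in the hippocampus and 9 in the BLA. The simulation gave both genotypes the same spread and changed genes picked at random, so these rates do not measure recovery of the 9 members. Alternatives were DESeq2 1.42.0, limma-voom (limma 3.58.1), RLE factors, other filters, a replicate block, a striatal marker covariate, and leaving out libraries. The block used the title number within a tissue and, across tissues, the label number that the tissues share. The 6 libraries below the gap in Trem2 were set apart after the data were seen. Named from each list were up to 3 called genes with the smallest p and up to 2 more, and beside Trem2 the 5 most alike genes; some genes that this rule names are not reported here.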

Additional observations from a re-analysis of the deposited data

Results flagged for a closer look

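In 8 of 72 sets of libraries, each 1 gene in 1 group, the highest library stood apart from the rest by Dixon's criterion, which chance alone meets in about 1 of 20 groups. In 6 of them the library was hippocampal APP/Tau naive replicate 5. It read 64.0 CPM for Trem2, with the nearest library of its group at 21.3 CPM, and 47.2 CPM for Tyrobp, with the nearest at 18.3 CPM. It also read 0.388 CPM for Hcst (nearest 0.145 CPM), 11.9 CPM for Syk (nearest 6.19 CPM), 15.99 CPM for Vav1 (nearest 6.32 CPM) and 11.4 CPM for Spi1 (nearest 5.51 CPM). Without this library the hippocampal genotype difference of Trem2 and Tyrobp still passed. The other sets were controls: Hcst read 0.185 CPM in hippocampal control naive replicate 1, the library richest in 18S RNA, with the nearest at 0.0541 CPM, and Plcg2 read 6.51 CPM in hippocampal control naive replicate 2, with the nearest at 5.67 CPM.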

How the results depend on the processing

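Of 9 members, the number called in the BLA by genotype was 3, and it was 5 with DESeq2, 1 with a replicate block, and 0 with limma-voom or the striatal covariate. Among trained BLA mice DESeq2 called 2. In the hippocampus among trained mice limma-voom and the fit without the 18S-rich libraries called 0, against 8. Among naive mice, where 1 was called, DESeq2 called 5, a mean CPM of at least 1 called 2, and limma-voom, the replicate block, the 2 groups alone and the fit without the 18S-rich libraries called 0. Between tissues in APP/Tau mice a block on the label number that the tissues share called 8, against 2. Leaving out each library gave 8 to 9 members in the hippocampus by genotype, 1 to 9 among trained and 0 to 5 among naive mice, 1 to 7 in the BLA and 0 to 6 among its trained mice, 2 to 8 between tissues in APP/Tau mice and 1 to 2 in controls, and 12 to 14 of 26 ratios. Against pan-microglial markers the ratio turned to -0.29 for Syk and -0.10 for Inpp5d in the hippocampus and to -0.15 for Syk, -0.13 for Plcg2 and -0.000538 for Lat2 in the BLA; with a pseudocount of 1 CPM that of Hcst was -0.24 in the hippocampus and -0.10 in the BLA. Leaving out a library turned Lat2 among naive BLA mice (-0.0298 to 0.398), Plcg2 between tissues (-0.0406 to 0.245), and in the BLA the ratios of Syk to markers (-0.0115 to 0.172) and Plcg2 to Syk (-0.12 to 0.10). The cause was not tested. For the other settings and the fits without 1 library, the share of all genes called is not given here. A moved count is therefore not shown to be particular to the 9 members. Title numbers did not pair libraries (mean correlation of same-numbered deviations 0.03 in the hippocampus, -0.02 in the BLA). As a hint from the data only, 37 of 38 libraries correlated best with the library of the other tissue that carries their own number. Hcst, at 0 to 71 counts, is limited by depth.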

Other observations

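Of 15 genes known from mouse models to need Trem2 for their full rise in microglia, 13 rose in APP/Tau mice in the hippocampus, with a median of 2.01. In the BLA 8 of 15 rose, with a median of 1.13, and 14 of 15 estimates were above 0, the lowest being -0.11; the list was chosen with results of these data known. The chemokine gene Ccl6, the lectin gene Clec7a and the integrin gene Itgax rose in the hippocampus by 3.73 ± 0.40, 6.10 ± 0.67 and 5.64 ± 0.62 (edgeR, adjusted p = 1.8e-05, 2.5e-05 and 2.5e-05). In the BLA Cd9, Cst7 and Ccl6 rose by 1.13 ± 0.19, 4.35 ± 0.80 and 2.46 ± 0.47 (edgeR, adjusted p = 0.0125, 0.0159 and 0.0198). Lpl, a lipase of this set, gave 0.26 in the hippocampus and did not pass.

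Border macrophages of the meninges and vessels also use Trem2 and Tyrobp. Of their 7 markers 4 rose in the hippocampus, among them the mannose receptor Mrc1 by 0.80 ± 0.20 (edgeR, adjusted p = 0.0151), and 0 of 5 tested were called in the BLA. The 7 markers summed to 7.05 to 14.7 CPM in APP/Tau and 4.06 to 10.7 CPM in control hippocampi, and to 1.88 to 5.75 CPM in APP/Tau and 0.403 to 6.18 CPM in control BLA libraries. Their part in the 9 genes was not tested.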
